A study of Mus musculus with 2 samples.

Results

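Vertebrate collagens are secreted or membrane-bound proteins built as triple helices, and 38 of the 55487 genes listed for these libraries code for a collagen chain outside type IV, the collagen of basement membranes. They were taken by symbol alone, as the 44 symbols of the form Col, number, a, number, less Col4a1 to Col4a6. The 38 genes were followed across the cell classes of 2 single-cell RNA-seq libraries from injured tibialis anterior muscle of mice aged 8 to 12 weeks, 1 from wild-type (WT) animals and 1 from a conditional knockout (KO) of Setdb1, which encodes a histone H3 lysine 9 methyltransferase. The series asks what this enzyme does in muscle stem cells during regeneration. Minced muscle was dissociated enzymatically (collagenase II, then with dispase added), Hoechst and propidium iodide guided the sort, and droplet libraries used 10x Genomics 3' v2 chemistry, per the labels' protocols. The same protocol text also speaks of hindlimb muscles from both legs, so the muscles behind each library are not certain. Not given in the sources used here are the Cre driver, the agent and day of injury, how many animals each library pools, and whether WT animals carried Cre or floxed alleles.

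Fibrillar collagens (types I, II, III, V, XI, XXIV and XXVII) pack into the fibrils that give tissue its tensile strength, with type I as the main load-bearing fibril, type III as its compliant partner, and types V and XI as minor chains that start fibrils and limit their width. FACIT collagens such as types XII and XIV sit on fibril surfaces, type VI forms beaded filaments around cells, type VIII forms hexagonal networks, type VII anchors epithelia, and types XV and XVIII (the multiplexins) lie beside basement membranes. After muscle injury, fibro-adipogenic progenitors, the resident mesenchymal cells that express Pdgfra, are the main makers of this matrix. Muscle stem cells (Pax7-expressing satellite cells) are known to make some collagens of their own niche.

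Promoter sequences are shown for 4 fibrillar members described below, since their transcripts were higher together in the KO library in fibroblast-like and tenocyte-like cells. The type I chain, the type III chain and 2 fibril-starting chains are each given as the 150 bases before the annotated start (RefSeq, GRCm38.p6, 5′ to 3′ on the gene's strand, plus strand for all 4). Capitals mark the letters CCAAT, or ATTGG where the match is on the opposite strand. These windows lie at chr6:4505468-4505617 for Col1a2, chr1:45311388-45311537 for Col3a1, chr2:27886275-27886424 for Col5a1 and chr3:114030390-114030539 for Col11a1.
Col1a2: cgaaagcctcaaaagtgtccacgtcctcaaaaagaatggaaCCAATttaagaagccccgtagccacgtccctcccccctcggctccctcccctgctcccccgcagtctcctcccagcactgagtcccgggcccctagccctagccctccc
Col3a1: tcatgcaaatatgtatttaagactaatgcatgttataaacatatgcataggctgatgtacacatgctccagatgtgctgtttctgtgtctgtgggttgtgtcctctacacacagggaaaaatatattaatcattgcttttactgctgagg
Col5a1: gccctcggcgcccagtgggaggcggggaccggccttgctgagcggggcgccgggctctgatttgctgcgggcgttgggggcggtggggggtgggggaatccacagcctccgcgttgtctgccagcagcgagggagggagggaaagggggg
Col11a1: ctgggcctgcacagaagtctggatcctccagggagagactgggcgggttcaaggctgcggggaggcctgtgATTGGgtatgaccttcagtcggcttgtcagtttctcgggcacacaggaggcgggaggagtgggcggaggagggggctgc
The Col1a2 and Col11a1 windows hold a CCAAT match, and those of Col3a1 and Col5a1 hold none. Over the 250 bases before the start, with both strands searched, CCAAT was found for 10 of the 30 members in the RefSeq promoter table and in 33.8% of all 32851 promoters. TATAAA was found for 5 of the 30 members against 12.4% of all promoters, and GGGCGG for 18 of 30 against 32.7%. These members have 33 promoters in the table, and a member counts if any of its promoters matches. Counted by promoter, as the shares of all promoters are, CCAAT was in 10 of 33, TATAAA in 5 and GGGCGG in 19. Hits of different motifs were counted separately and may overlap, and a match describes letters only.

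The deposited matrices held every barcode, so cells were called again as barcodes with at least 5000 UMIs (unique molecular identifiers, 1 for each RNA molecule tagged), at least 300 genes and at most 10% mitochondrial UMIs. After removal of likely doublets, 6345 WT and 6411 KO cells remained with median depths of 12092 and 12050.0 UMIs, and 9 of the barcodes above 5000 UMIs occurred in both libraries. Cells were clustered without the collagen genes and named "X-like" from marker lists. Fibro-adipogenic or fibroblast-like cells (775 WT and 969 KO), tenocyte-like cells (81 and 138), myogenic-like cells (680 and 381), mural-like cells (70 and 119), endothelial-like cells (659 and 673) and mononuclear phagocyte-like cells (3128 and 3214) were the classes of most interest. Their largest clusters were higher than the other cells for 14 of 14 fibroblast, 10 of 10 tenocyte, 10 of 12 myogenic, 10 of 10 mural and 11 of 11 endothelial markers. The labels call the samples skeletal muscle cells, but 49.3% of WT and 50.1% of KO cells were phagocyte-like and only 5 and 10 cells were myofibre-like. Cluster 5, a further 6.40% of WT and 8.02% of KO cells, had 15 of 15 phagocyte markers higher. It was left unnamed because Cd79b, on the B or plasma list, was among its leading genes. Setdb1 was at 18.1 and 8.66 CPM in myogenic-like cells of the WT and KO libraries, a KO/WT ratio of 0.478 [0.365 to 0.620], against 1.22 [1.04 to 1.43] in fibroblast-like, 1.03 [0.763 to 1.40] in endothelial-like and 1.27 [1.14 to 1.40] in phagocyte-like cells. The ratio was also below 1 in tenocyte-like (0.663 [0.368 to 1.20]), mural-like (0.659 [0.283 to 1.59]) and dendritic-like cells (0.813 [0.516 to 1.26]), from few UMIs and with intervals that held 1.

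A level is the UMIs of a gene summed over the cells of a class and library, as counts per 1e6 UMIs of that class (CPM). With a 3' protocol each transcript is counted at its end, so a level is a number of tagged transcripts and is not divided by gene length. With 1 library a genotype there is no replicate and no test between genotypes: values in brackets are exact 95% intervals that cover counting error only. A KO/WT ratio of at least 1.5, or at most 1/1.5, is called past the fold, for genes with at least 20 UMIs over both libraries, and each count of members is given beside the share of all genes past the fold in the same class. Free RNA was measured in barcodes with 20 to 100 UMIs, 23470 (WT) and 29478 (KO). In this ambient RNA the 38 members summed to 0.494% of WT and 0.947% of KO UMIs, a ratio of 1.92 [1.86 to 1.98], with 15 of 17 members past the fold in the KO direction (background 12.2%) and 0 in the other (background 7.05%). A level is named below only where it is at least 20 CPM and at least 2 times its ambient reach in 1 library. The ambient reach is the level that free RNA could give, set for each class and library by the marker of another class that is lowest there relative to ambient RNA.

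Collagen transcripts sat overwhelmingly in fibroblast-like cells, which held 85.6% of all member UMIs in WT cells and 86.4% in KO cells, followed by tenocyte-like cells with 6.57% and 8.69%. By the naming rule 22 of the 38 members were named in at least 1 class: 9 of 11 fibrillar members, 4 of 9 FACIT members, 3 of 7 beaded filament members, 2 of 4 network or anchoring members, 1 of 4 transmembrane members, both multiplexins and Col26a1. As a share of a class's UMIs the members made up 2.69% in WT and 3.81% in KO fibroblast-like cells and 2.68% and 4.08% in tenocyte-like cells, 0.400% and 0.422% in Schwann or glial-like, 0.320% and 0.651% in mural-like and 0.202% and 0.169% in myogenic-like cells, and 0.0850% and 0.128% in endothelial-like cells. They were 0.0135% and 0.0273% in phagocyte-like, 0.0144% and 0.0239% in dendritic-like, 0.0130% and 0.0259% in cluster 5, and 0.0113% and 0.304% in T or NK lymphocyte-like cells.

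**Figure D1:**
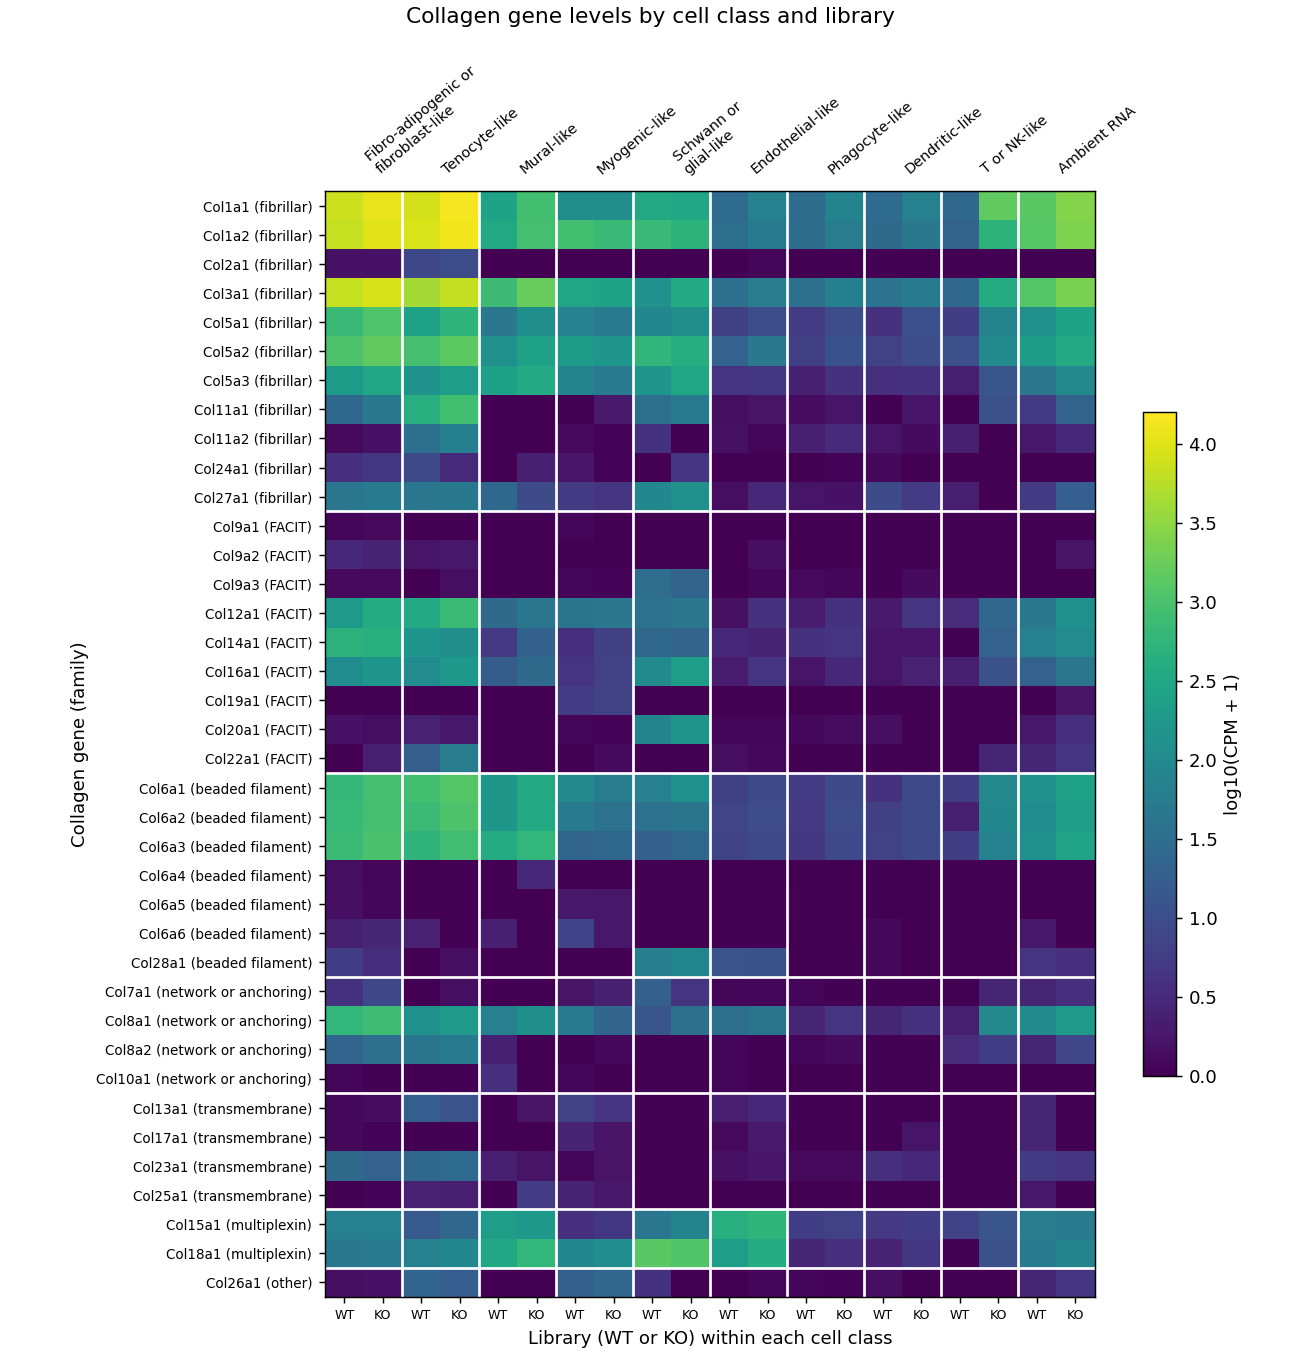
Level of each of the 38 collagen genes (rows, with family) in 9 cell classes and in ambient RNA, WT and KO library side by side; colour is log10(CPM + 1). Fibroblast-like and tenocyte-like columns are the brightest, Col15a1 is brightest in endothelial-like cells, and Col18a1, Col20a1 and Col28a1 are brightest in Schwann or glial-like cells.

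In fibro-adipogenic or fibroblast-like cells the summed collagen level was 26935 CPM (WT) and 38081 CPM (KO), a ratio of 1.41 [1.41 to 1.42]. Of the 19 named members 17 had ratios above 1, Col15a1 with an interval that held 1, with the FACIT Col12a1 and the fibril-starting Col11a1 furthest apart, while Col14a1 and Col23a1 were below 1. Of 29 members with enough UMIs, 9 were past the fold in the KO direction (background 11.9%) and 1 in the other (background 9.94%). The median log2 ratio over these members was 0.43, against 0.07 over all genes.

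Type I and III chains made up most of the collagen in these cells. Col1a1, the α1 chain of type I, was at 7607 CPM in the WT library and 11362 CPM in the KO library, a ratio of 1.49 [1.48 to 1.503]. Its partner Col1a2 was at 6881 and 10079 CPM in WT and KO, 1.46 [1.45 to 1.47], and Col3a1, the sole chain of type III, at 6870.4 and 8844 CPM, 1.29 [1.28 to 1.30]. All 3 lay inside the 1.5-fold line, with the type III chain closer to 1 than the type I pair. The fibril-starting chains Col5a1, Col5a3 and Col11a1 were further from 1 than type I. Col5a1 was at 683 and 1104 CPM, 1.62 [1.58 to 1.65]. Col5a3, a less abundant type V chain, was at 194 and 318 CPM, 1.64 [1.58 to 1.71]. Col5a2, the most abundant type V chain here, did not share this. It was at 1049 and 1481 CPM, 1.41 [1.39 to 1.44], below its heterotrimer partner Col5a1 and below both type I chains. Col11a1, a type XI chain best known from cartilage, was at 24.6 and 48.0 CPM, 1.95 [1.75 to 2.18]. Col27a1 was near equal, at 43.2 and 51.6 CPM, 1.20 [1.09 to 1.31].

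Among collagens that bind to fibril surfaces the members parted. Col12a1, which links fibrils to other matrix in tissue under load, was at 177 CPM in the WT library and 389 CPM in the KO library, 2.19 [2.11 to 2.28], the highest ratio of the named members in this class. After each cell was thinned at random to 5000 UMIs, 45.3% [41.7 to 48.9] of 775 WT and 65.2% [62.1 to 68.2] of 969 KO cells held a Col12a1 UMI (exact binomial intervals, which cover counting error over the cells of 1 library and do not compare genotypes). Unthinned, these shares were 77.5% and 83.3%, and thinned phagocyte-like cells, in which Col12a1 was not named, gave 0.448% and 1.56%. Col14a1, a FACIT of resting connective tissue, was at 504 and 447 CPM, 0.886 [0.862 to 0.911]. Within the main clusters Col14a1 was nearer to 1, at 0.948 [0.920 to 0.978] in cluster 0 and 0.925 [0.855 to 1.00] in cluster 10. Summed over the 9 FACIT members the ratio was 1.27 [1.24 to 1.29], so the sum covers members on both sides of 1. Col16a1, another FACIT, was at 107 and 163 CPM, 1.52 [1.44 to 1.60]. The type VI chains, Col6a1, Col6a2 and Col6a3, which assemble in one heterotrimer, had ratios of 1.48, 1.36 and 1.35. The network chain Col8a1 was at 606 and 798 CPM, 1.32 [1.29 to 1.35], and Col8a2, which is far scarcer, at 21.7 and 33.3 CPM, 1.53 [1.36 to 1.73]. Multiplexins were close to equal, with ratios of 1.04 [0.968 to 1.12] for Col15a1 and 1.16 [1.07 to 1.27] for Col18a1. Scaling to the median of gene ratios or averaging per-cell CPM put Col15a1 slightly below 1.

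Members at lower levels in these cells were less even. The transmembrane Col23a1 was at 26.8 and 19.6 CPM, 0.731 [0.644 to 0.830]. Col7a1, the chain of epithelial anchoring fibrils, stayed under 20 CPM at 3.03 and 7.28 CPM, 2.41 [1.77 to 3.31]. Col28a1 was at 5.12 and 2.61 CPM, 0.510 [0.366 to 0.707], the only member past the fold in the WT direction, and its highest level was in cluster 27, a small group of 32 WT and 10 KO cells led by Sfrp5, Lypd2 and Tenm2, where it was at 116 and 39.97 CPM. In cluster 0 alone Col28a1 was at 2.92 and 3.16 CPM, 1.08 [0.715 to 1.64]. Col22a1 had 0 WT and 31 KO UMIs, with 93.5% of those 31 in 3 cells.

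Fibroblast-like cells came from 4 clusters, and their mix differed between libraries. Cluster 0 held 664 WT and 619 KO cells, and cluster 10, led by cell-cycle genes such as Hmmr and Tpx2, held 69 WT and 335 KO cells. Col1a1 was higher in the KO library within each, with ratios of 1.498 [1.49 to 1.51] in cluster 0 and 1.55 [1.52 to 1.57] in cluster 10. Col12a1 behaved likewise, at 2.22 [2.12 to 2.32] and 1.93 [1.75 to 2.14]. Col23a1 was lower in the KO library in cluster 0, at 0.725 [0.629 to 0.835], and its interval held 1 in cluster 10, at 1.13 [0.769 to 1.69]. In cluster 27 the Col1a1 ratio was 0.981 [0.870 to 1.10], so the gene was at nearly the same level in both libraries there. Per cell, the median collagen share of a cluster 0 cell's UMIs was 2.62% (10th to 90th percentile 1.35% to 4.37%) for WT and 3.65% (10th to 90th percentile 1.95% to 6.23%) for KO. The cells of the libraries overlapped widely, and cells are not replicates. KO fibroblast-like cells were deeper, with a median of 25395.0 UMIs against 21751.0, and carried more phagocyte marker RNA, 1858 against 913 CPM summed over 15 markers. Their mural markers summed to 1746 against 895 CPM, and the part of either difference in these ratios was not tested.

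**Figure D2:**
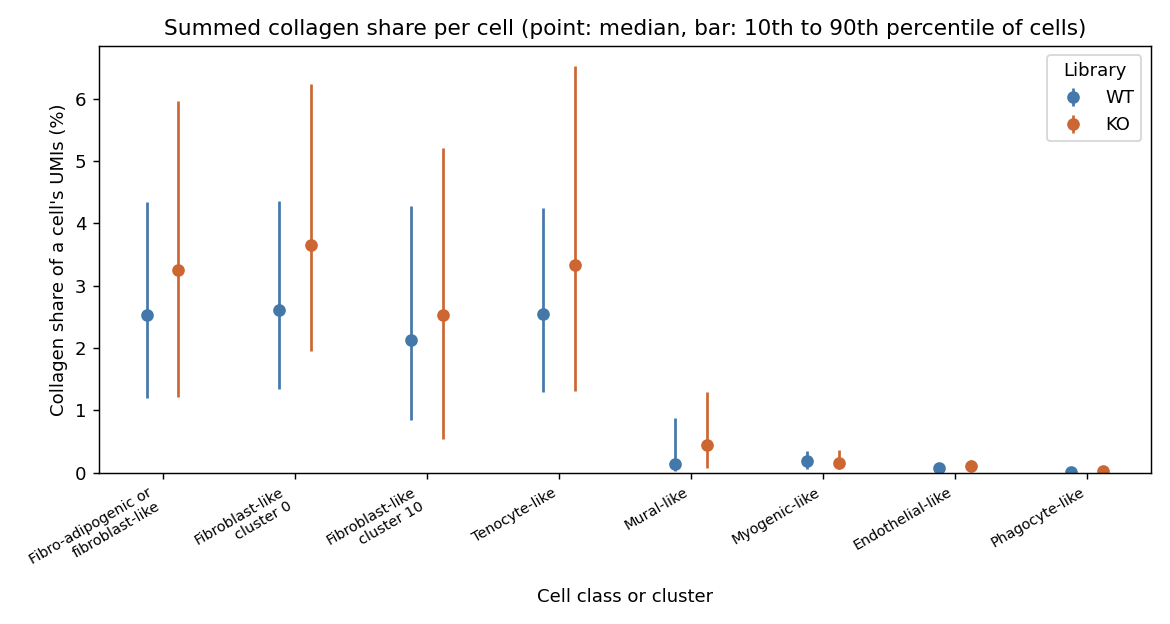
Share of each cell's UMIs taken by the 38 collagen genes (percent, linear axis) by class or cluster, WT blue and KO orange; points are medians over cells and bars run from the 10th to the 90th percentile. In cluster 0 the KO median of 3.65% lies above the WT median of 2.62% with overlapping bars, and in myogenic-like cells the KO median is the lower one.

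Tenocyte-like cells, which express the tendon genes Tnmd, Kera and Fmod, had the highest type I levels of any class and the most named members, 22. Their summed level was 26825 CPM (WT) and 40782 CPM (KO), a ratio of 1.52 [1.502 to 1.54]. Of 24 members with enough UMIs, 10 were past the fold in the KO direction (background 18.3%) and 1, Col13a1, in the other (background 6.23%). All genes were shifted by a median log2 of 0.16 in this class, and the members' median was 0.55. Scaled to that shift the summed ratio was 1.36 and 6 members were past the fold. The mean over cells of per-cell CPM left 5, of which 3 were higher in the KO library and 2 in the WT library.

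Col1a1 in tenocyte-like cells was at 8535 CPM in the WT library and 13747 CPM in the KO library, 1.61 [1.58 to 1.64], and Col1a2 at 9106 and 12939 CPM, 1.42 [1.39 to 1.45]. Col3a1 was at 4249 and 6459 CPM, 1.52 [1.48 to 1.57]. Col5a1, Col11a1 and Col11a2, which belong to fibril-starting collagens, were further from 1 than either type I chain. Col5a1 was at 249.5 and 539 CPM, 2.16 [1.92 to 2.44], Col11a1 at 440.4 and 846 CPM, 1.92 [1.75 to 2.11], and Col11a2 at 32.9 and 64.9 CPM, 1.97 [1.41 to 2.81]. The other named type V chains, Col5a2 and Col5a3, lay between Col1a2 and Col1a1 instead. Col5a2 stood at 1.47 [1.38 to 1.57], closer to 1 than Col5a1. For Col5a3 the log2 ratio was 0.63, against 0.51 for Col1a2 and 0.69 for Col1a1. The Col11a1 level was many times that of fibroblast-like cells in both libraries. Under other settings the log2 ratio ran from 0.78 to 1.44 for Col5a1, 0.56 to 1.32 for Col11a1 and 0.29 to 1.73 for Col11a2. These ranges overlap that of Col1a1, 0.48 to 0.97, and the ranking above is for cells called at 5000 UMIs. At minima of 10000 and 2000 UMIs, KO tenocyte-like cells numbered 77 and 310, and WT cells 74 and 80.

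Col12a1 was at 372 and 728 CPM, 1.96 [1.78 to 2.17], and Col14a1 again lay on the other side of 1, at 158 and 123 CPM, 0.779 [0.651 to 0.931]. Col16a1 was at 107 and 172 CPM, 1.61 [1.33 to 1.96]. Col22a1, the FACIT of muscle-tendon junctions, was at 17.9 and 58.6 CPM, 3.28 [2.13 to 5.24], from 25 WT and 139 KO UMIs, with 31.7% of the KO UMIs in 3 cells. Type VI ratios were 1.41, 1.46 and 1.49 for Col6a1, Col6a2 and Col6a3. Col8a1 had a ratio of 1.37 [1.15 to 1.64]. For Col8a2, Col15a1, Col23a1, Col26a1 and Col27a1 the counting interval held 1, and Col23a1 and Col27a1 crossed 1 under other settings. Phagocyte markers summed to 3282 CPM in WT and 5421 CPM in KO tenocyte-like cells, and their part in these ratios was not tested.

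**Figure D3:**
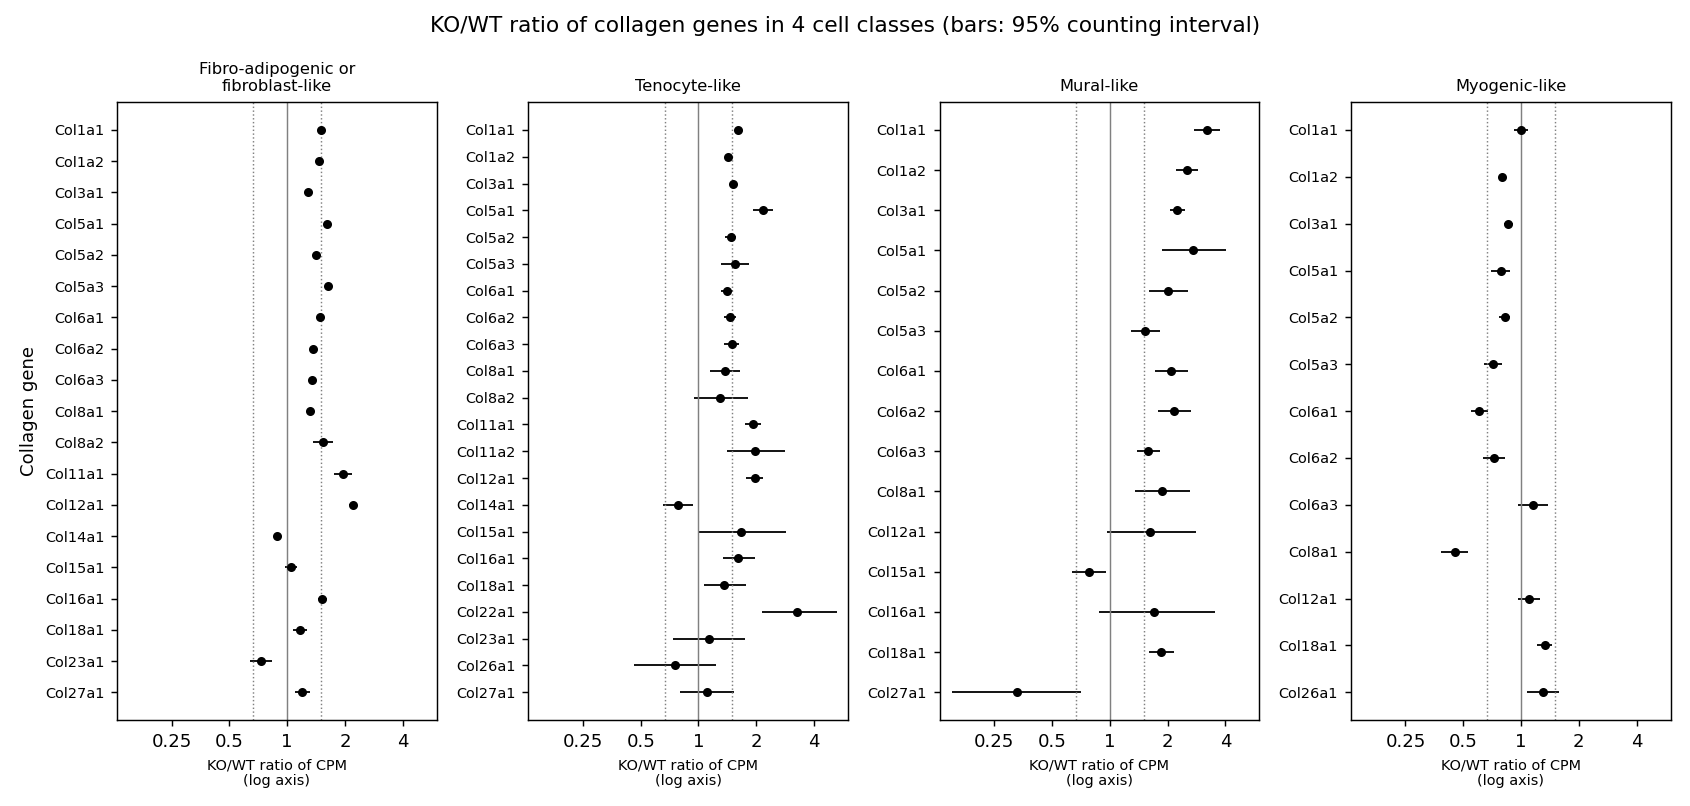
KO/WT ratio of CPM (log axis) for the named collagen genes in 4 cell classes; points are ratios, bars are 95% counting intervals from 1 library a genotype, the solid line is 1 and dotted lines are 1.5-fold. In fibroblast-like and tenocyte-like cells Col12a1 lies near 2 and Col14a1 below 1, and in myogenic-like cells Col8a1 lies at 0.453.

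Myogenic-like cells, in which Setdb1 itself was lower in the KO library, had 13 named members, 8 of them with a counting interval below 1. For Col18a1 and Col26a1 the interval lay above 1, and for Col1a1, Col6a3 and Col12a1 it held 1. Their summed collagen level was 2015 CPM (WT) and 1689 CPM (KO), a ratio of 0.838 [0.821 to 0.855]. Of 24 members with enough UMIs, 6 were past the fold in the WT direction (background 12.3%) and 3 in the KO direction (background 12.0%). Clusters differed in share: the Pax7-led cluster 8 held 519 WT and 193 KO cells, and the Myog-led cluster 21 held 41 WT and 66 KO cells. In cluster 8 alone the summed ratio was 0.927.

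Col1a2 was by far the most abundant collagen transcript of myogenic-like cells, at 856 CPM in the WT library and 684 CPM in the KO library, 0.799 [0.775 to 0.825], although type I collagen is usually made of both chains. Of its UMIs, 9036 of 11433 in WT and 3337 of 6088 in KO myogenic-like cells lay in cluster 8. The part of this cluster mix in the Col1a2 ratio was not tested. Col1a1 was only at 117 and 117 CPM, 1.00 [0.924 to 1.08]. The UMI ratio of Col1a1 to Col1a2 was 0.136 [0.129 to 0.144] in WT and 0.171 [0.160 to 0.182] in KO myogenic-like cells. It was 1.11 [1.10 to 1.11] and 1.13 [1.12 to 1.13] in fibroblast-like cells and 1.03 [0.956 to 1.10] and 1.07 [1.02 to 1.12] in ambient RNA. The low ratio held in each myogenic cluster, from 0.0915 to 0.142 in WT and from 0.153 to 0.197 in KO cells. Col1a1 was 7.09 times its ambient reach in WT but only 1.88 times in KO myogenic-like cells, and with doublets kept its log2 ratio was 0.79 in place of one near 0. Col1a2 was 53.4 and 11.8 times its reach.

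**Figure D4:**
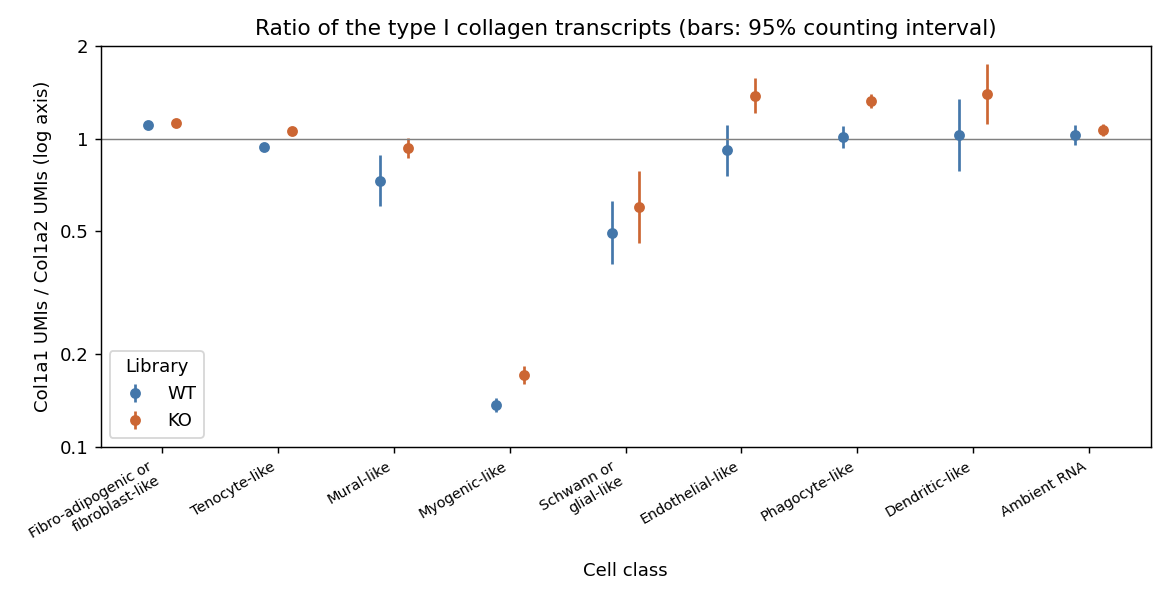
UMIs of Col1a1 divided by UMIs of Col1a2 (log axis) by cell class and in ambient RNA, WT blue and KO orange; bars are 95% counting intervals. Myogenic-like cells lie at 0.136 and 0.171, apart from every other class drawn; T or NK lymphocyte-like cells are left out of the plot.

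Col8a1 was the named member furthest below 1 in this class, at 50.1 CPM in the WT library and 22.7 CPM in the KO library, 0.453 [0.385 to 0.531]. In cells thinned to 5000 UMIs, 17.6% of WT and 8.66% of KO myogenic-like cells held a Col8a1 UMI (35.4% and 24.7% unthinned), beside 0.799% and 1.93% of thinned phagocyte-like cells. Within cluster 8 it was at 64.4 and 29.1 CPM, 0.453 [0.366 to 0.557], but in cluster 19, led by histone genes, it was at 22.4 and 24.2 CPM, 1.08 [0.709 to 1.65]. Col6a6, an alternative type VI chain, was under 20 CPM, at 6.07 and 0.899 CPM, 0.148 [0.0619 to 0.306], from 81 WT and 8 KO UMIs. Most of it came from cluster 8, where it was at 8.10 and 1.34 CPM, 0.165 [0.0520 to 0.403]. Col6a1 was at 93.4 and 56.8 CPM, 0.608 [0.547 to 0.674], and 0.798 [0.703 to 0.903] within cluster 8. The third type VI chain Col6a3 was scarce beside it, with Col6a3 to Col6a1 UMI ratios of 0.228 [0.199 to 0.259] in WT and 0.432 [0.367 to 0.507] in KO, against 1.16 [1.13 to 1.19] and 1.06 [1.04 to 1.07] in fibroblast-like cells.

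Type V chains were lower in KO myogenic-like cells, with ratios of 0.783 [0.701 to 0.874] for Col5a1, 0.820 [0.768 to 0.876] for Col5a2 and 0.713 [0.638 to 0.795] for Col5a3. Col3a1 was at 305 and 262 CPM, 0.858 [0.816 to 0.904], yet 1.02 [0.959 to 1.09] within cluster 8 and 1.73 [1.32 to 2.28] in cluster 21, and the mean of per-cell CPM put it just above 1 in the class. The multiplexin Col18a1, a heparan sulphate proteoglycan, was on the other side, at 84.1 and 112 CPM, 1.33 [1.22 to 1.45], and 1.67 [1.48 to 1.88] within cluster 8. Col26a1 was at 18.2 and 23.6 CPM, 1.30 [1.07 to 1.57]. Col12a1 was at 41.3 and 45.5 CPM, 1.10 [0.968 to 1.26]. Col19a1 was detected mainly in these cells, at 4.42 and 5.51 CPM, from 59 and 49 UMIs. Markers of other cells differed in both directions. In WT and KO myogenic-like cells, fibroblast markers summed to 201 and 129 CPM, tenocyte markers to 63.6 and 132 CPM, mural markers to 1018 and 1593 CPM and phagocyte markers to 574 and 1029 CPM. Myofibre markers summed to 1274 and 2699.9 CPM and erythroid markers to 41.3 and 728 CPM. Their part in these ratios was not tested.

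Mural-like cells, the pericytes and smooth muscle cells around vessels, had higher levels of most chains in the KO library, with a summed ratio of 2.04 [1.95 to 2.13]. Of 16 members with enough UMIs, 14 were past the fold in the KO direction (background 17.0%) and 1 in the other (background 8.07%). Col3a1, their most abundant collagen transcript, was at 754 CPM in the WT library and 1697 CPM in the KO library, 2.25 [2.05 to 2.47]. Col1a1 was at 264 and 846 CPM, 3.20 [2.75 to 3.74], and Col18a1 at 324 and 601 CPM, 1.86 [1.61 to 2.15]. Col5a3 was at its highest level of any named class here, at 239 and 364 CPM, 1.53 [1.29 to 1.82]. Col15a1 was lower in the KO library, at 223 and 173 CPM, 0.779 [0.639 to 0.951], and so was Col27a1, at 25.6 and 8.47 CPM, 0.330 [0.150 to 0.705], from 19 and 13 UMIs.

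Clustered more finely, mural-like cells split into 34 WT and 81 KO cells led by Higd1b, Kcnj8 and Rgs5, and 36 WT and 39 KO cells led by Pln, Myh11 and Nrip2. The summed collagen level was 5983 and 8615 CPM, ratio 1.44 [1.37 to 1.51], in the Rgs5 group and 772 and 1373 CPM, ratio 1.78 [1.55 to 2.05], in the Myh11 group, so each ratio was below that of the pooled class. Col1a1 in the Rgs5 group was at 484 and 1161 CPM, ratio 2.40 [2.04 to 2.83], and Col15a1 at 464 and 227 CPM, ratio 0.490 [0.400 to 0.602]. In the Myh11 group Col15a1 was at 12.6 and 38.2 CPM, ratio 3.03 [1.07 to 10.49], on the other side of 1. Fibroblast markers in the pooled class summed to 217 CPM in WT and 584 CPM in KO, and erythroid markers to 9889 and 26.1 CPM. Their part in these ratios was not tested. With cells called at a minimum set from each library's top barcodes, 34 WT and 31 KO cells were mural-like, and Col5a2, Col8a1 and Col16a1 lay below 1, with log2 ratios of -0.35, -1.03 and -0.51. With doublets kept no cluster was mural-like. Cluster 24, with 50 WT and 21 KO cells, was led by Kcnj8 and Rgs5 and had all 11 endothelial markers higher as well, and it was left unnamed.

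Endothelial-like cells carried mainly multiplexins. Col15a1 was at 435 CPM in the WT library and 552 CPM in the KO library, 1.27 [1.21 to 1.33], the highest Col15a1 level of any named class, though WT cells of the unnamed cluster 24 were at 495 CPM. Col18a1, whose C-terminal fragment is endostatin, was at 224 and 403 CPM, 1.80 [1.69 to 1.91]. Col5a2 was at 19.8 and 47.4 CPM, 2.40 [1.97 to 2.93], and Col8a1, first described in endothelial cells, at 31.4 and 39.8 CPM, 1.27 [1.06 to 1.51]. Of 17 members with enough UMIs, 9 were past the fold in the KO direction (background 8.09%) and 0 in the other (background 3.96%). Among those 9 are Col1a1, Col1a2 and Col3a1, whose levels were between 0.907 and 1.60 times their ambient reach and which are therefore not named. Col28a1 stayed near 10 CPM, at 10.9 and 9.92 CPM. Fibroblast markers summed to 104 CPM in WT and 144 CPM in KO endothelial-like cells, mural markers to 402 and 332 CPM, phagocyte markers to 2317 and 2382 CPM and erythroid markers to 145 and 805 CPM. Their part in these ratios was not tested.

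Schwann or glial-like cells numbered 32 (WT) and 31 (KO), under the 50 set for ratios, and only their levels are given. Col18a1 was their most abundant member, at 1350.2 CPM in the WT library and 1151 CPM in the KO library, the highest Col18a1 level of any class. Col1a2 was at 692 and 518 CPM and Col5a2 at 577 and 413 CPM, both above Col1a1 at 343 and 311 CPM. Col20a1 was at 78.0 and 147 CPM and Col28a1, a collagen known from peripheral nerve, at 62.4 and 83.9 CPM, from 20 to 42 UMIs a library. Col9a3 was at 31.2 and 20.99 CPM, from 10 and 6 UMIs.

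In cells of blood origin many collagen levels lay near the ambient reach, but not all. Some members had at least 3 UMIs and were not under 2 times their reach in at least 1 library. There were 14 of 38 in phagocyte-like cells, 8 in cluster 5 and 7 in dendritic-like cells, none at 20 CPM in that library. A member without ambient UMIs in a library has a reach of 0 there, so it counts from 3 UMIs alone. In the ambient RNA of both libraries together, 7 members had 0 UMIs. Mononuclear phagocyte-like cells had 16 of 21 members past the fold in the KO direction (background 8.01%) and 0 in the other (background 4.93%), and a summed ratio of 2.03 [1.96 to 2.09], beside 1.92 [1.86 to 1.98] in ambient RNA. Col1a1 was at 29.6 CPM in the WT library and 78.0 CPM in the KO library, which is 1.09 and 1.29 times its ambient reach, and no member was named in this class. Col15a1 was above its reach, at 4.97 and 5.54 CPM, but far under 20 CPM. The Col1a1 to Col1a2 UMI ratio was 1.01 [0.930 to 1.10] in WT and 1.33 [1.26 to 1.40] in KO phagocyte-like cells, beside 1.03 [0.956 to 1.10] and 1.07 [1.02 to 1.12] in ambient RNA. Of 5 chain pairs compared in this way, the intervals of phagocyte-like cells and ambient RNA overlapped in both libraries except for Col1a1 to Col1a2 in KO and Col3a1 to Col1a1 in WT. Dendritic-like cells had 5 of 11 past the fold in the KO direction (background 10.7%) and 1 in the other (background 6.22%), and the unnamed Cx3cr1-led cluster 5 had 11 of 14 (background 9.64%) and 0 in the other (background 4.16%), also with no member named. How much of these levels is free RNA was not tested, and no difference in collagen expression by phagocytes is read from them.

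**Figure D5:**
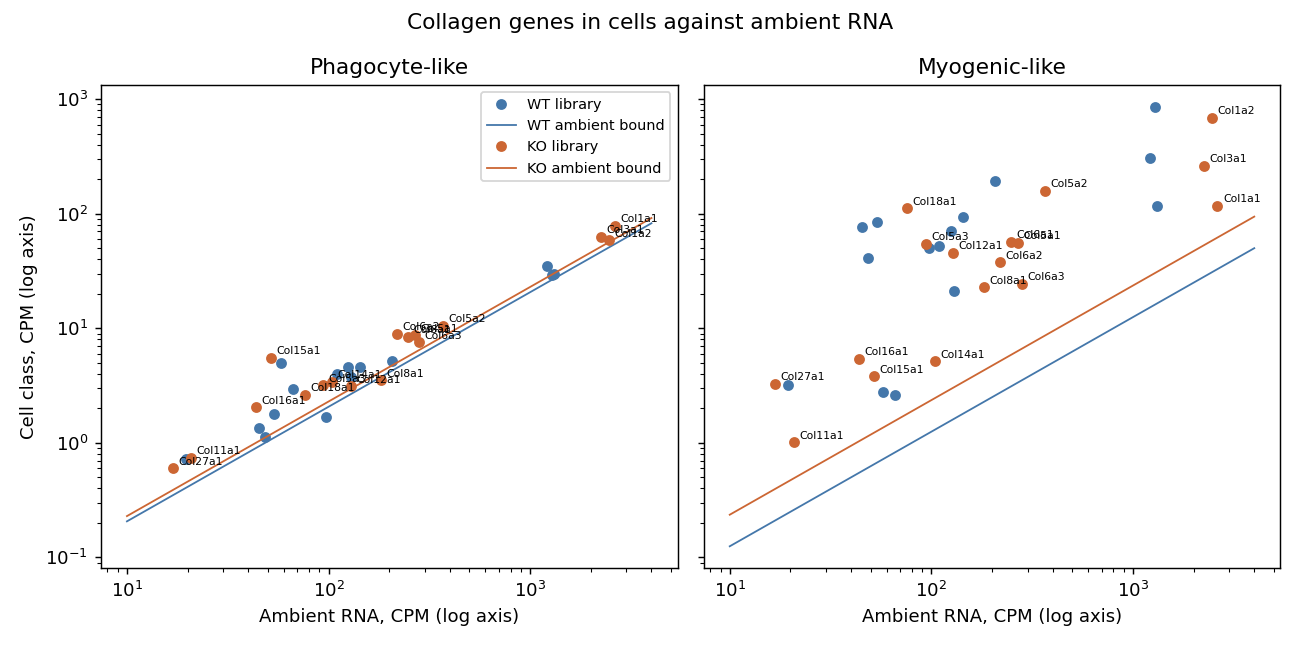
Level of each collagen gene in phagocyte-like (left) and myogenic-like cells (right) against its level in ambient RNA, both in CPM on log axes, for genes with at least 20 ambient UMIs; lines give the ambient bound of each library. Most phagocyte-like points lie close to the lines, with Col15a1 above them, and myogenic-like points lie above them, Col1a1 of the KO library closest among the abundant genes.

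T or NK lymphocyte-like cells were the exception among blood-derived classes, with Col1a1 at 25.5 CPM in the WT library and 1506 CPM in the KO library. All 9 members with enough UMIs were past the fold in the KO direction (background 21%) and 0 in the other (background 10.4%). The naming rule was met by 11 members, all of them through the KO library alone. That count therefore rests on the same high KO levels. The KO Col1a1 to Col1a2 UMI ratio was 2.86 [2.51 to 3.26] in these cells. Markers of other cells moved with them: 14 fibroblast markers summed to 40.1 CPM in WT and 944 CPM in KO cells, mural markers to 6.08 and 479 CPM, and phagocyte markers to 1289 and 4875 CPM. Only 50 WT and 56 KO cells were in this class, and 3 KO cells held 35.3% of its member UMIs. Without them Col1a1 was at 993 CPM in the KO library. The part of the other cells' RNA in this ratio was not tested.

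Genes that modify, fold, cleave and cross-link collagen chains were read beside the members. Genes named here beyond the 4 with most UMIs in each list were picked after their values were seen. In fibroblast-like cells 1 of 15 hydroxylation genes was past the fold in the KO direction, Plod2, the lysyl hydroxylase of telopeptides, at 207 and 347 CPM, ratio 1.68 [1.62 to 1.75]. None of the 10 folding and secretion genes was past the fold, and Serpinh1, the collagen chaperone HSP47, was at 2555 and 2610.3 CPM, ratio 1.02 [1.01 to 1.03]. Among 5 cross-linking genes the lysyl oxidase Loxl2 was past the fold in the KO direction, at 162 and 301 CPM, ratio 1.86 [1.78 to 1.94], and Loxl4 in the other, while Lox was at 409.7 and 568 CPM, ratio 1.39 [1.35 to 1.43]. Of 12 fibril-associated proteins 2, Fmod and Kera, were past the fold in the KO direction and 3 in the other. Kera rests on 1 WT and 79 KO UMIs. Both are on the tenocyte marker list, whose 10 genes summed to 761 CPM in WT and 728 CPM in KO fibroblast-like cells. The part of tenocyte RNA in the ratios of this class was not tested. The 3 in the other direction were Dcn, at 3841 and 2277 CPM, ratio 0.593 [0.586 to 0.599], Lum, at 717 and 471 CPM, ratio 0.656 [0.640 to 0.673], and Prelp, at 125 and 71.4 CPM, ratio 0.570 [0.535 to 0.606], small leucine-rich proteoglycans that bind fibrils. Dcn and Lum are also among the markers that named this class. Propeptide cleavage genes numbered 2 higher and 1 lower past the fold of 7 with enough UMIs, and collagen receptors 1 and 1 of 8.

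Tenocyte-like cells had 5 of 10 folding and secretion genes past the fold in the KO direction and none in the other. Examples are Creb3l1, a transcription factor of secretory cells, at 35.0 and 71.6 CPM, ratio 2.04 [1.48 to 2.87], Sec23a, a coat protein of secretory vesicles, at 30.0 and 67.8 CPM, ratio 2.26 [1.60 to 3.25], and Fkbp10, a collagen chaperone, at 112 and 186 CPM, ratio 1.66 [1.38 to 2.003]. Of 14 hydroxylation genes with enough UMIs, 4 were past the fold in the KO direction, P4ha3, P3h1, Plod2 and Plod3. Of 11 fibril-associated proteins none was past the fold in the KO direction, and Lum and Prelp were past it in the other, at 1145 and 745 CPM, ratio 0.651 [0.608 to 0.697] and 172 and 73.3 CPM, ratio 0.427 [0.349 to 0.521]. Propeptide cleavage had 1 of 5 genes past the fold in the KO direction, cross-linking 2 of 5 and receptors 2 of 8, with none in the other direction in these 3 lists. In myogenic-like cells the counts past the fold, KO direction first, were 1 and 1 of 13 for hydroxylation, 0 and 1 of 10 for folding, 1 and 0 of 5 for cleavage, 1 and 1 of 10 for fibril-associated proteins and 1 and 2 of 6 for receptors. There none of the 4 cross-linking genes with enough UMIs was past the fold, and Serpinh1 was at 859 and 848 CPM, ratio 0.986 [0.958 to 1.02]. Mural-like cells had 7 of 11 fibril-associated proteins past the fold in the KO direction and 1 in the other, with Bgn, which codes for biglycan, at 514 and 896 CPM, ratio 1.74 [1.56 to 1.96], and Aspn, which codes for asporin, at 809 and 520.4 CPM, ratio 0.643 [0.578 to 0.716]. Their other lists had 1 of 13 hydroxylation, 2 of 10 folding, 2 of 3 cleavage and 1 of 4 cross-linking genes in the KO direction and none in the other, and receptors 2 and 1 of 6. In endothelial-like cells none of 14 hydroxylation, 3 cleavage and 6 receptor genes was past the fold, and 2 of 10 folding, 3 of 4 cross-linking and 2 of 10 fibril-associated genes were past it in the KO direction. The 3 cross-linking genes were at most at 10.8 CPM. No ambient reach was computed for assembly genes, and the part of free RNA in their counts was not tested. The backgrounds are those given above for each class.

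The other 16 members reached the naming rule in no class that was compared. Col6a4, Col6a5, Col9a1, Col10a1 and Col17a1 had under 20 UMIs in all cells of at least 1 library. Col2a1, the chain of cartilage fibrils, was highest in tenocyte-like cells, at 7.15 and 8.85 CPM. The transmembrane Col13a1, found at the neuromuscular junction, was highest there too, at 17.2 and 11.0 CPM, 0.638 [0.352 to 1.16], and was at 5.47 and 3.48 CPM in myogenic-like cells. Col24a1 was at 2.86 and 3.84 CPM in fibroblast-like cells, and Col9a2 at 1.98 and 1.58 CPM. Col25a1 stayed under 5 CPM in every class. Col6a6, Col7a1, Col19a1, Col20a1, Col28a1 and Col9a3 are described above in the class where each was highest or differed.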

How the data were processed

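Per the labels' protocols, 10x Genomics 3' v2 libraries were made from 1 WT and 1 KO pool of sorted cells. What the authors deposited are raw UMI counts, whole numbers for each gene and barcode, with no normalization or cell filter visible in the values. The submitters' processing notes list Seurat 4.0.1, STAR 2.7.8a, STARsolo 2.7.9a and the build GRCm38, without the role of each. Not given in the sources used here is how introns and multimapping reads were counted.

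The libraries held 121703522 WT and 138667420 KO UMIs. Of 6732 and 6799 barcodes with at least 5000 UMIs, 6705 and 6779 passed 300 genes and 10% mitochondrial UMIs. Scrublet's own threshold called 113 WT and 0 KO doublets, so the highest scores, at 0.8% per 1000 barcodes, were removed (360 and 368). Scanpy 1.11.5 with leidenalg 0.10.2 clustered the cells from 2000 variable genes without collagens, 30 components, 15 neighbours and resolution 1 with seed 0. A cluster was named from its marker list, and a difference between libraries can come in part from these rebuilt names. Levels are summed counts of a class in one library, scaled to CPM. Poisson and conditional binomial intervals (scipy 1.17.1, 95%) cover counting error only. No test between genotypes was possible with 1 library each.

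A member is described where it has at least 20 CPM and at least 2 times its ambient reach in 1 library; for the collagen assembly lists the rule is the counts past the fold and up to 4 genes by UMIs, and genes named beyond it were picked after their values were seen. The members, marker lists and assembly lists were chosen with earlier results of these data known. Counts were simulated with counting error only, as Poisson draws from the pooled sums of both libraries. On draws from fibroblast-like cells (15492 genes, 193 changed 3-fold), 95.6% of intervals held the true ratio. Of the changed genes 99.5% were recovered, and 5.17% of unchanged genes were past the fold. For tenocyte-like cells (9563 genes, 176 changed) these were 96.2%, 100% and 11.5%. The draws hold no spread between cells, animals or libraries, so they check the calculation and give no rate of false calls for these data. Alternatives covered the minimum UMIs, doublets, clustering, mitochondrial share, scaling, cell weights, low-count filter, ambient barcodes and thinning depth.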

Additional observations from a re-analysis of the deposited data

Results flagged for a closer look

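Some members lay above 1 in the KO library in one cell class and below 1 in another, each with a counting interval that leaves out 1. Between fibroblast-like and myogenic-like cells the gap in log2 KO/WT ratio was 0.87 for Col1a2, 0.58 for Col3a1, 1.05 for Col5a1, 0.78 for Col5a2, 1.20 for Col5a3, 1.28 for Col6a1, 0.92 for Col6a2, 1.54 for Col8a1. Col15a1 was above 1 in endothelial-like and below 1 in mural-like cells, a gap of 0.70. Col27a1 was above 1 in fibroblast-like and below 1 in mural-like cells, a gap of 1.86 from 32 mural UMIs in all. With 1 library a genotype these differences between classes were not tested. The Col3a1 gap between fibroblast-like and myogenic-like cells is smaller within myogenic cluster 8, where the interval of the ratio held 1. Col6a1 was also nearer to 1 in cluster 8 than in the whole class, and the Col8a1 interval held 1 in cluster 19. For Col1a2, Col5a1, Col5a2, Col5a3 and Col6a2 no ratio within myogenic clusters is given here. Cluster 8 held 519 WT and 193 KO cells, and the part of the cluster mix in these gaps was not tested.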

How the results depend on the processing

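The direction of the summed collagen level was kept under every setting run in fibroblast-like, tenocyte-like and myogenic-like cells, while its size moved. In the order of a minimum from each library's top barcodes, a minimum of 10000 UMIs, of 2000 UMIs, doublets kept, collagen genes used for clustering, resolution 2, scaling to the median of gene ratios, CPM without mitochondrial and ribosomal protein genes, and the mean of per-cell CPM, the log2 ratio in fibroblast-like cells (0.50) was 0.53, 0.55, 0.36, 0.56, 0.53, 0.48, 0.43, 0.45 and 0.38. In tenocyte-like cells (0.60) it was 0.63, 0.87, 0.40, 0.68, 0.72, 0.74, 0.44, 0.54 and 0.36. In myogenic-like cells (-0.26) it was -0.16 at 10000 UMIs, -0.0888 at 2000 UMIs, -0.12 with doublets kept, -0.30 with median scaling, -0.33 without mitochondrial and ribosomal protein genes and -0.15 by per-cell means. Chosen after seeing the data, cluster 0 alone gave 0.54, the class without cluster 27 gave 0.49, and myogenic cluster 8 alone gave -0.11; the mural split and the values without the top 3 cells were also chosen then. The count of members past the fold in fibroblast-like cells (10) was 18 with no filter on low counts. In tenocyte-like cells (11) it was 17 with collagen genes used for clustering, 6 with median scaling, 5 by per-cell means and 17 with no filter. In mural-like cells the minimum from the top barcodes reversed Col5a2 (-0.35), Col8a1 (-1.03) and Col16a1 (-0.51). Under the settings run, the sign held for 18 of 19 named members in fibroblast-like, 20 of 22 in tenocyte-like, 11 of 13 in myogenic-like, 12 of 15 in mural-like and 4 of 4 in endothelial-like cells. The cause of these shifts was not tested. At 2000 UMIs the KO fibroblast-like class grew to 2440 cells with a median of 3954.5 UMIs, against 793 WT cells with 20950.0. No paired analysis was possible because each genotype has 1 library.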
